A study of Mus musculus with 8 samples.

Results

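The genes that make, desaturate, elongate and activate fatty acids, and those that turn them into ceramide and break ceramide products down, were compared between Opn5-null and wild-type mouse corneas. The members were 36 listed genes, taken as the rows of the deposited table that carried their names. Of these, 35 were found among 16091 genes, and Elovl3 was not analysed here. There were 4 Opn5-null corneas (genotype Opn5-/-), which lack opsin 5, a photopigment sensitive to violet and ultraviolet light, and 4 wild-type corneas. All 8 samples were whole corneas whose epithelium had been debrided 12 hours before they were frozen, so every comparison is between wounded corneas and no unwounded cornea was analysed here. The labels name the genotype without its allele, and they do not state strain, age or sex. All 8 sample titles hold the word Light, which the labels do not explain, and no light exposure is described. Reads on the genes of the deposited table, recovered from its values, came to 21111715 to 28219234 a library. Values are normalized counts, meaning reads of a gene divided by the size factor of its library. Nothing in the labels says whether samples of a genotype came from separate animals, so a p-value here reflects only how far these samples spread, which may be technical. The deleted gene itself was not analysed here.

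Fatty acid synthesis starts in the cytosol, where citrate is cleaved to acetyl-CoA, acetyl-CoA is carboxylated to malonyl-CoA, and fatty acid synthase joins these units into palmitate. Desaturases then insert double bonds, and a cycle of elongase, dehydratase and reductases in the endoplasmic reticulum lengthens the chain. Acyl-CoA synthetases activate free fatty acids for use. Sphingolipids begin with serine and palmitoyl-CoA, pass through ceramide, and leave either as glucosylceramide and other complex lipids or as sphingosine 1-phosphate, a signalling lipid that a lyase finally breaks. Very long-chain ceramides are known for their part in the water barrier of surface epithelia, and lipids of this kind are also made by the glands of the lid.

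In Opn5-null corneas the palmitate-making, desaturating and elongating enzymes were mostly lower, and 3 of the 4 that use ceramide or act on sphingosine 1-phosphate were higher. Of the 35 members, 12 fell and 7 rose past an adjusted p of 0.05 by limma. Over all 16085 genes tested, 13.5% were called lower and 18.8% higher, so the members were called lower more often (34.3%) while their share of higher calls (20%) was near that of all genes. The median log2 fold change was -0.12 over the members and -0.02 over all genes tested. The shares of all genes, 13.5% lower and 18.8% higher, are also the background for the counts by role and list below. In 14 members all 4 Opn5-null libraries lay below every wild-type library, and in 7 all lay above. Over all genes 18.1% were separated with Opn5-null libraries lower and 20.3% with them higher. Leaving out wild-type A, B, C or D gave 5, 6, 5 and 5 members that fell, when 6.70%, 9.26%, 7.72% and 8.01% of all genes were called lower. Leaving out Opn5-null D gave 12, when 15.3% of all genes were called lower. Under every leave-out of 1 library, 5 members kept a lower call (Acly, Fasn, Elovl5, Elovl6 and Tecr) and 6 kept a higher call (Hacd1, Acsl4, Degs2, Ugcg, Sphk1 and Sgpl1). The share of all genes that kept a call in this way was not computed, so these counts have no background beside them.

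**Figure D1:**
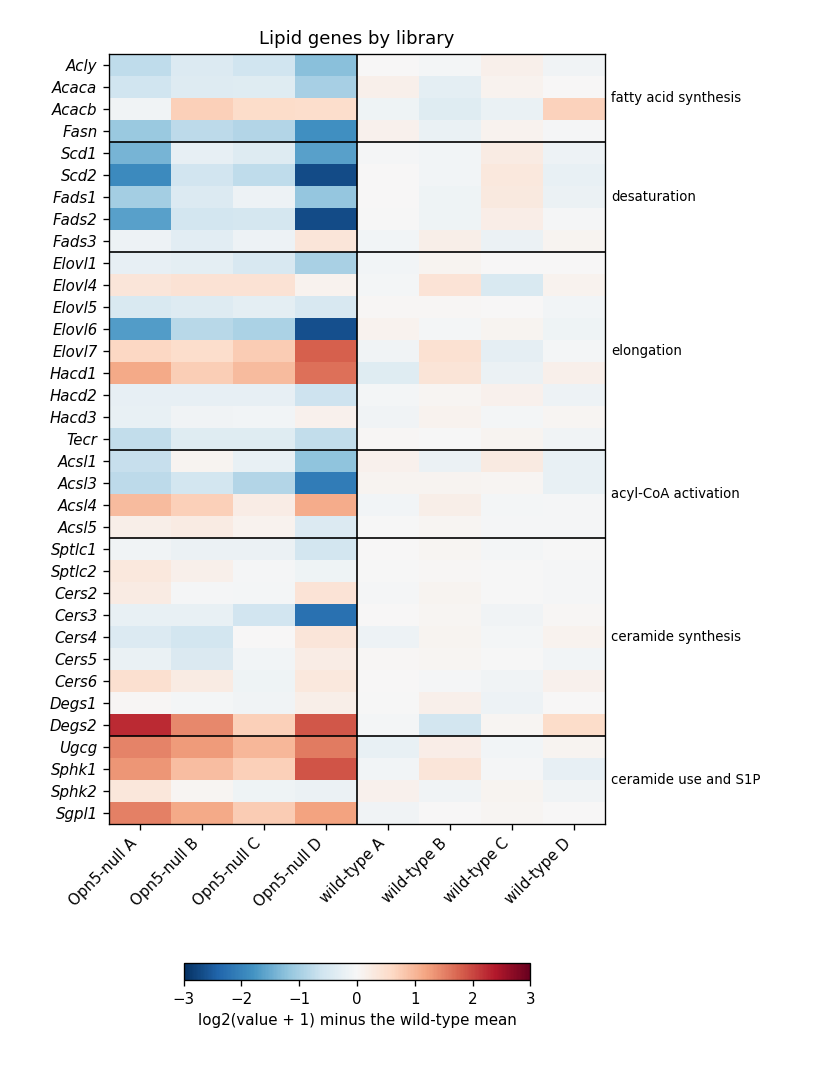
Each cell is the log2(value + 1) of a gene in a library minus the mean of the 4 wild-type libraries, with genes in rows grouped by role and libraries in columns. Blue fills most Opn5-null cells of the synthesis and desaturation rows, deepest in Opn5-null D and A, and red fills those of Ugcg, Sphk1 and Sgpl1.

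**Figure D2:**
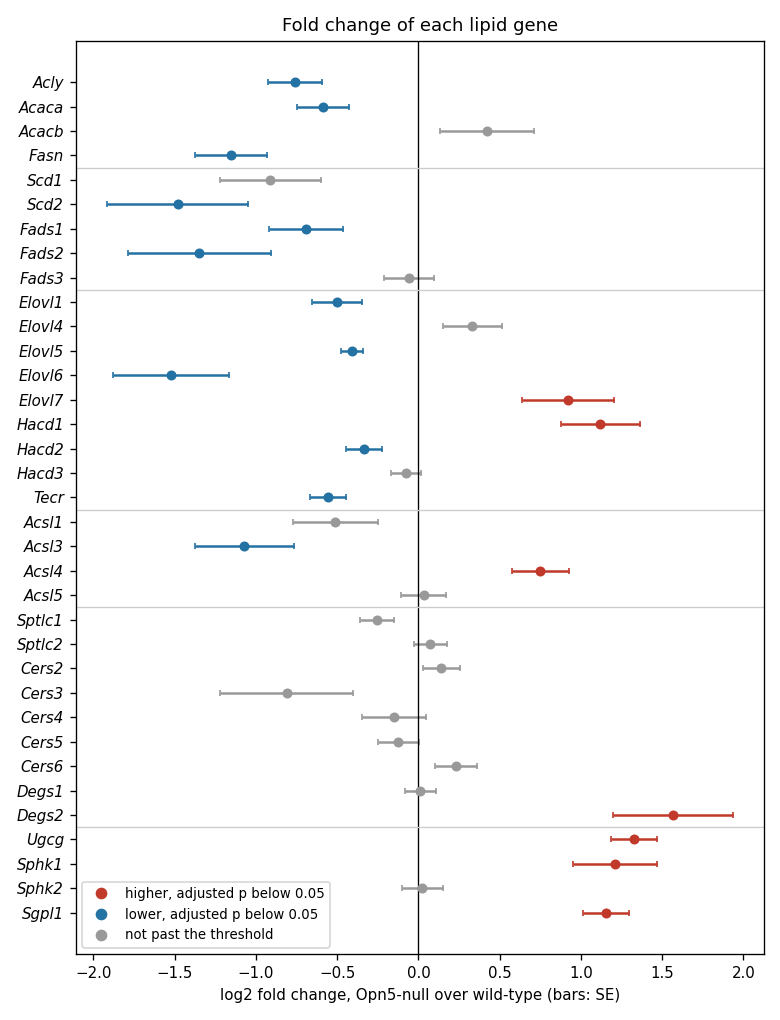
Points give the log2 fold change of each gene, Opn5-null over wild-type, from limma on log2(value + 1), and bars give its SE (n = 4 each). The 12 lower calls lie in the synthesis, desaturation, elongation and acyl-CoA activation rows, and the 7 higher calls run from Acsl4 at 0.75 to Degs2 at 1.56.

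Opn5-null D stood apart from the other libraries, and markers of several cell types moved with genotype. The summed level of 23 corneal epithelial markers was 141019 to 579683 normalized counts in Opn5-null libraries and 744815 to 946504 in wild-type libraries, with Opn5-null D lowest and the other 3 Opn5-null libraries at 458012, 579683 and 565396. Of these markers 6 fell, 0 rose and 17 were not called, with a median log2 fold change of -0.92. Krt12, the cornea-specific keratin, measured 30136, 85007, 84288 and 15836 in Opn5-null A to D, against 127461, 113204, 189385 and 91673 in wild-type A to D. The ranges of Krt12 did not overlap, but it was not called (limma, adjusted p = 0.0574). All 8 general leukocyte markers rose, and their sum was 32706 to 91044 normalized counts in Opn5-null libraries and 5408 to 10436 in wild-type libraries, highest in Opn5-null A and lowest among the Opn5-null libraries in C. Keratocyte and fibroblast markers, 14 genes of which 5 rose and 2 fell, summed to 218015 to 313779 normalized counts in Opn5-null libraries and 180104 to 204507 in wild-type libraries. Conjunctival and goblet cell markers, 7 measured of which 5 fell and 0 rose, had a median log2 fold change of -1.68 and sums of 10439.8 to 45419.9 normalized counts in Opn5-null libraries and 82926 to 115119 in wild-type libraries, without overlap. Of 15 lens markers 12 fell and 1 rose, with a median of -2.35, while their sums overlapped, at 5345 to 15609 normalized counts in Opn5-null libraries and 5597 to 11439 in wild-type libraries. Most of the sum in each Opn5-null library was Cryab, at 4893, 4034, 4531 and 14083 in A to D. In wild-type A to D Cryab was 3645, 5559, 3631 and 4333, and it was not called (limma, adjusted p = 0.340). The overlap of the sums therefore does not describe the other lens markers. Every gene of the deposited table had at least 81 reads over all libraries, so no marker measured could be at 0 in all of them. How far these cell types or tissues account for the changes in lipid genes was not tested, and in whole corneas fewer cells of a type and less RNA per cell cannot be told apart.

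Of the 4 genes of palmitate synthesis 3 fell and 0 rose, with a median log2 fold change of -0.67. Acly, which makes cytosolic acetyl-CoA from citrate, measured 5638, 7143, 6246 and 3953 normalized counts in Opn5-null libraries A to D, against 9521, 9185, 10516 and 8851 in wild-type libraries A to D. Its 2 groups did not overlap, and its log2 fold change was -0.76 with an SE of 0.17 (limma, adjusted p = 0.0103). Fasn, the synthase that builds palmitate, measured 2669, 3337, 3129 and 1596 normalized counts in Opn5-null libraries A to D, against 6274, 5009, 6207 and 5563 in wild-type libraries A to D. Every Opn5-null value lay under the lowest wild-type value, and Opn5-null D was the lowest. On the log2 scale Fasn had a change of -1.15 with an SE of 0.22 (limma, adjusted p = 0.00549), or 2.15-fold lower by the means. Acaca, which encodes the carboxylase of the cytosol, measured 1511, 1744, 1754 and 1131 normalized counts in Opn5-null libraries A to D, against 2529.9, 1861, 2454 and 2297 in wild-type libraries A to D. The groups of Acaca were separate by a narrow gap, between Opn5-null C and wild-type B, with a log2 fold change of -0.59 with an SE of 0.16 (limma, adjusted p = 0.0231). Acacb, the isoform known for malonyl-CoA at mitochondria, was low, with 34.2, 61.6, 55.2 and 54.0 normalized counts in Opn5-null libraries A to D, against 33.7, 28.5, 32.5 and 60.7 in wild-type libraries A to D. The ranges of Acacb overlapped and its log2 fold change was 0.42 with an SE of 0.29 (limma, adjusted p = 0.287). Acaca lost its call with wild-type A, C or D left out (adjusted p = 0.0713, 0.0671 and 0.0586), and over all alternatives its adjusted p ran from 0.00485 to 0.0713.

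The start-site windows of Fasn and Elovl6 are shown because these genes had the lowest log2 fold changes among the synthesis and elongation members. The desaturase genes Scd2 and Fads2 had lower changes than Fasn, at -1.48 and -1.35. No window was available for Scd2, and that of Fads2 is not shown. Each runs from 250 bases before to 50 after the RefSeq start, on GRCm38.p6, written 5′ to 3′ on the gene's strand, and capitals mark the letters CCAAT or their reverse complement.
Fasn, chr11:120824498-120824797, minus strand: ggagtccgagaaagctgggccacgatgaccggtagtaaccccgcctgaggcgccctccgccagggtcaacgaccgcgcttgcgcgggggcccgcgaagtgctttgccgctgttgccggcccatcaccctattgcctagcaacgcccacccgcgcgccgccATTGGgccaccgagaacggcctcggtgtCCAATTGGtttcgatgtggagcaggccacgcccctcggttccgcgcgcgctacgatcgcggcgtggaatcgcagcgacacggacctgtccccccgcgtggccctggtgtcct
Elovl6, chr3:129532136-129532435, plus strand: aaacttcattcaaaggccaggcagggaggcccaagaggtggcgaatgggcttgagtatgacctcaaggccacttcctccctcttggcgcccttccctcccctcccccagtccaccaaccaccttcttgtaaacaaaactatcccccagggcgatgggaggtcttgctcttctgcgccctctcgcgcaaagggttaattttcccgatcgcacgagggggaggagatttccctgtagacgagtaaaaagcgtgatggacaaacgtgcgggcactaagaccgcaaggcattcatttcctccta
The motifs searched, on both strands, were TCACNCCAC, the core of a sterol regulatory element, CACGTG, an E-box that SREBP proteins can also bind, and CCAAT, the box bound by NF-Y. In the Fasn window CCAAT matched at 90, 62 and 59 bases before the start, where the matches at 62 and 59 share letters on opposite strands. The Elovl6 window held no match to any of the 3, and neither did the Fads2 window. Of the 35 members, 32 had windows in the table, 40 in all. CCAAT was in 50% of these windows and in 37.4% of all 32851 windows, CACGTG in 20% against 7.15%, and TCACNCCAC in 2.5% against 1.24%. The genes with CACGTG were Cers2, Cers6, Degs1, Elovl4, Elovl5, Hacd3 and Sphk1. Of these Elovl5 was called lower, Sphk1 was called higher, and the rest were not called. Overlapping Sphk1 windows held the same CACGTG site, so that site is counted in more than 1 window. The only member window with TCACNCCAC belonged to Acsl1. A match describes letters and does not show binding, and no match says only that the letters are not in the window.

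Of the 5 desaturase genes 3 fell and 0 rose, with a median log2 fold change of -0.91 and a wide spread among Opn5-null libraries. Scd2, a stearoyl-CoA desaturase that makes monounsaturated fatty acids, lies on chromosome 19 with its close relative Scd1. Scd2 measured 10376, 26335, 22985 and 6065 normalized counts in Opn5-null libraries A to D, against 39321, 36705, 48189.5 and 33300.3 in wild-type libraries A to D. Opn5-null A and D lay far under B and C, and all 4 lay under the lowest wild-type value. Its log2 fold change was -1.48 with an SE of 0.44 (limma, adjusted p = 0.0322), 2.40-fold lower by the means. The Opn5-null libraries ran B, C, A, D from high to low for Scd2. That was also the order of the corneal epithelial marker sum, at 579683, 565396, 458012 and 141019 normalized counts. The part of epithelium in the Scd2 values was not tested. Scd1 measured 1406, 3133, 2834 and 1187 normalized counts in Opn5-null libraries A to D, against 3626, 3473, 4403 and 3348 in wild-type libraries A to D, also without overlap, but did not pass the test at -0.91 with an SE of 0.31 (limma, adjusted p = 0.0537). How reads shared by these relatives were divided is not stated in the labels.

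The Fads genes sit side by side on chromosome 19 of GRCm38, with Fads3 at 10041569 to 10060110, Fads2 at 10062765 to 10101746 and Fads1 at 10182888 to 10196877. Fads2, the desaturase that opens the path from dietary to long polyunsaturated fatty acids, measured 454, 959, 971 and 217 normalized counts in Opn5-null libraries A to D, against 1388, 1275, 1601 and 1361 in wild-type libraries A to D. As for Scd2, the 2 lowest Opn5-null values were those of D and A, and no value overlapped. Its log2 fold change was -1.35 with an SE of 0.44 (limma, adjusted p = 0.0469). Fads1, which acts later in the same path, measured 938, 1438, 1726 and 853 normalized counts in Opn5-null libraries A to D, against 1939, 1758, 2338 and 1692 in wild-type libraries A to D. Opn5-null C reached the range of the wild-type libraries, and the log2 fold change was -0.69 with an SE of 0.23 (limma, adjusted p = 0.0491). Fads3, an enzyme reported to act on sphingoid bases, was between 386 and 614 in Opn5-null libraries and between 419.6 and 544 in wild-type libraries, with a log2 fold change of -0.06 with an SE of 0.15 (limma, adjusted p = 0.791).

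Each desaturase call was lost by edgeR with all libraries kept (adjusted p = 0.0518 for Scd2, 0.0636 for Fads1 and 0.0707 for Fads2), and again when certain libraries were left out. Fads1 was also not called under TMM scaling (adjusted p = 0.0515), and neither Fads1 nor Fads2 with ordinary variance in limma (adjusted p = 0.0635 and 0.0596). Scd2 was no longer called with Opn5-null A or wild-type A, B, C or D left out (adjusted p = 0.0791, 0.0766, 0.0648, 0.0848 and 0.0602), nor without both D libraries (adjusted p = 0.0574), with a range of 0.00916 to 0.0848 over all alternatives. Fads2 was no longer called with Opn5-null A or wild-type A, B, C or D left out (adjusted p = 0.103, 0.0997, 0.0842, 0.109 and 0.0932), nor without both D libraries (adjusted p = 0.0724), with a range of 0.023 to 0.109. Fads1 was no longer called with Opn5-null A, B or D or wild-type A, B, C or D left out (adjusted p = 0.113, 0.0527, 0.0874, 0.107, 0.0798, 0.124 and 0.0751), nor without both D libraries (adjusted p = 0.107), with a range of 0.0108 to 0.124. Scd1 was called lower with Opn5-null B or C left out (adjusted p = 0.0249 and 0.0301), and with all libraries under quantile normalization, upper-quartile scaling and DESeq2 (adjusted p = 0.0316, 0.0319 and 0.0371), with a range of 0.0249 to 0.142.

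**Figure D3:**
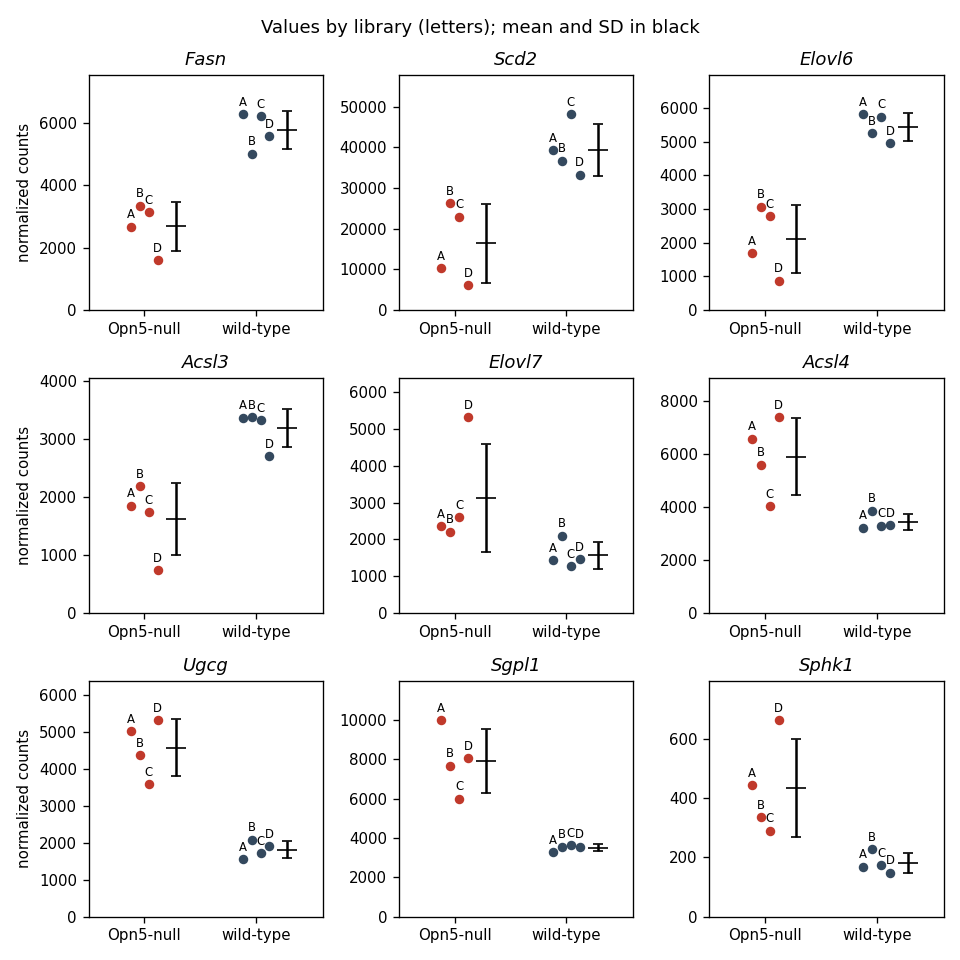
Points give normalized counts in each library, lettered A to D, on axes that start at 0, with the mean and SD of each genotype in black (n = 4). The Opn5-null and wild-type points of all 9 genes are separate, and Opn5-null D is the lowest point for Fasn, Scd2, Elovl6 and Acsl3 and the highest for Elovl7, Acsl4, Ugcg and Sphk1.

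The elongation machinery split by gene, with 5 of 9 genes falling, 2 rising and a median log2 fold change of -0.33. Elovl6, which lengthens palmitate to stearate, had the lowest log2 fold change of any member, with 1691, 3064, 2796 and 876 normalized counts in Opn5-null libraries A to D, against 5817, 5246, 5739 and 4950.3 in wild-type libraries A to D. Opn5-null D was lowest and A next, and the highest Opn5-null value lay under the lowest wild-type value. The log2 fold change was -1.52 with an SE of 0.36 (limma, adjusted p = 0.0132), 2.58-fold lower by the means. Elovl5, an elongase of polyunsaturated chains, was between 1725 and 1962 in Opn5-null libraries and between 2277 and 2459 in wild-type libraries, a small separation with a log2 fold change of -0.41 with an SE of 0.07 (limma, adjusted p = 0.00296). Elovl1, which makes very long saturated chains, was between 1584 and 2633 in Opn5-null libraries and between 2942 and 3308 in wild-type libraries, with a log2 fold change of -0.50 with an SE of 0.15 (limma, adjusted p = 0.0365). Elovl7, an elongase of long saturated chains, moved the other way, with 2369, 2212, 2609 and 5309.6 normalized counts in Opn5-null libraries A to D, against 1437, 2105, 1270.4 and 1470.4 in wild-type libraries A to D. Opn5-null D was far above the rest, and the other 3 Opn5-null values still lay above the highest wild-type value, in wild-type B. Elovl7 had a log2 fold change of 0.92 with an SE of 0.28 (limma, adjusted p = 0.0383), and the ratio of its means was 1.99 with all libraries and 1.53 without Opn5-null D. Elovl4, known for the longest chains, was between 209 and 265 in Opn5-null libraries and between 142 and 260.0 in wild-type libraries and did not pass, at 0.33 with an SE of 0.18 (limma, adjusted p = 0.193), but was called higher with quality weights (adjusted p = 0.0446, with a range of 0.0446 to 0.419 over all alternatives).

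The other enzymes of the elongation cycle also differed in direction. Tecr, the reductase of its last step, measured 819, 1063, 1062 and 815 normalized counts in Opn5-null libraries A to D, against 1401, 1366, 1455 and 1266 in wild-type libraries A to D. No values overlapped, with a log2 fold change of -0.56 with an SE of 0.11 (limma, adjusted p = 0.00675). Hacd1, a dehydratase known mainly from muscle, measured 139, 105, 121 and 198 normalized counts in Opn5-null libraries A to D, against 48.1, 81.8, 55.4 and 70.1 in wild-type libraries A to D. All Opn5-null values were above the wild-type ones, 2.21-fold higher by the means, with a log2 fold change of 1.12 with an SE of 0.24 (limma, adjusted p = 0.00886). Hacd2 was between 942 and 1227 in Opn5-null libraries and between 1305 and 1581 in wild-type libraries, with a log2 fold change of -0.33 with an SE of 0.11 (limma, adjusted p = 0.0443). Hacd3, the most abundant dehydratase gene in normalized counts per kb of exon, at 653 in Opn5-null libraries and 686 in wild-type libraries, did not pass, at -0.07 with an SE of 0.09 (limma, adjusted p = 0.571).

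Some of the elongation calls were lost with 1 library left out. Elovl1 was not called with Opn5-null C or wild-type A, B, C or D left out (adjusted p = 0.0523, 0.0716, 0.0883, 0.0833 and 0.0826), over a range of 0.00717 to 0.0883 in all alternatives. Elovl7 was not called with wild-type A, C or D left out (adjusted p = 0.0942, 0.1 and 0.0871), over a range of 0.00607 to 0.1. The same held for Hacd2 with Opn5-null A or B or wild-type A, B, C or D left out (adjusted p = 0.0542, 0.061, 0.0868, 0.103, 0.116 and 0.0536), over a range of 0.00826 to 0.116. Elovl7 also lost its call under quantile normalization and upper-quartile scaling (adjusted p = 0.0583 and 0.059).

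Among the acyl-CoA synthetases 1 fell and 1 rose. Acsl3, a synthetase of the endoplasmic reticulum and lipid droplets, measured 1859.5, 2189, 1741 and 747 normalized counts in Opn5-null libraries A to D, against 3377, 3382, 3327 and 2710.1 in wild-type libraries A to D. Opn5-null D was the lowest and no values overlapped, with a log2 fold change of -1.07 with an SE of 0.30 (limma, adjusted p = 0.0287). Acsl4, which prefers arachidonate and related polyunsaturated acids, measured 6575, 5595, 4022 and 7382 normalized counts in Opn5-null libraries A to D, against 3220.2, 3869, 3304 and 3327 in wild-type libraries A to D. Its Opn5-null values all lay above wild-type B, the highest of the wild-type libraries, and its log2 fold change was 0.75 with an SE of 0.18 (limma, adjusted p = 0.013). Acsl1 was between 1708 and 4198 in Opn5-null libraries and between 3397 and 4729.9 in wild-type libraries and Acsl5 between 3366 and 5360.0 in Opn5-null libraries and between 4412 and 4711 in wild-type libraries. The ranges of Acsl1 and of Acsl5 overlapped, with log2 fold changes of -0.51 with an SE of 0.26 (limma, adjusted p = 0.166) and 0.03 with an SE of 0.14 (limma, adjusted p = 0.881). Acsl5 was called higher with quality weights (adjusted p = 0.0319, with a range of 0.0319 to 0.983 over all alternatives). Acsl3 lost its call with wild-type A, B, C or D left out (adjusted p = 0.0745, 0.0675, 0.0712 and 0.0501), with a range of 0.00155 to 0.0745 over all alternatives.

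Of the 9 genes of ceramide synthesis 1 rose (11.1%) and 0 fell, against 18.8% and 13.5% of all genes. Degs2, an enzyme that hydroxylates dihydroceramide to phytoceramide, was low throughout, with 68.4, 39.1, 23.4 and 53.1 normalized counts in Opn5-null libraries A to D, against 13.3, 9.19, 14.3 and 20.6 in wild-type libraries A to D. All Opn5-null values were above the highest wild-type value, and the log2 fold change was 1.56 with an SE of 0.37 (limma, adjusted p = 0.013). Degs1, the dihydroceramide desaturase found in most tissues, averaged 3985 ± 348 in Opn5-null libraries and 3953 ± 363 in wild-type libraries (SD, n = 4 each) in normalized counts, with a log2 fold change of 0.01 with an SE of 0.09 (limma, adjusted p = 0.935). Sptlc1 and Sptlc2, subunits of the serine palmitoyltransferase that starts the pathway, had log2 fold changes of -0.25 with an SE of 0.10 (limma, adjusted p = 0.0934) and 0.07 with an SE of 0.10 (limma, adjusted p = 0.601). The Sptlc1 values were separate, between 1233 and 1685 in Opn5-null libraries and between 1731 and 1901 in wild-type libraries, and Sptlc1 was called lower under quantile normalization, upper-quartile scaling and quality weights (adjusted p = 0.0138, 0.0157 and 0.0244), with a range of 0.0138 to 0.187 over all alternatives.

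Of the ceramide synthases, which differ in the chain length they attach, none passed the test. Cers3, known for the ultra-long ceramides of the epidermal barrier, measured 3382, 3437, 2691 and 845 normalized counts in Opn5-null libraries A to D, against 4017, 4120.3, 3718 and 4072 in wild-type libraries A to D. Opn5-null D stood far below the rest, and the other 3 Opn5-null values also lay under the lowest wild-type value, that of C. The log2 fold change of Cers3 was -0.81 with an SE of 0.41 (limma, adjusted p = 0.161) with all libraries, and -0.34 without Opn5-null D, when it was called lower (adjusted p = 0.026, with a range of 0.026 to 0.255 over all alternatives). Cers2, the synthase of very long-chain ceramides in many tissues, was between 3683 and 5105 in Opn5-null libraries and between 3726 and 4072 in wild-type libraries, with a log2 fold change of 0.14 with an SE of 0.11 (limma, adjusted p = 0.361). Cers6 had a log2 fold change of 0.23 with an SE of 0.13 (limma, adjusted p = 0.19) and was called higher without Opn5-null C (adjusted p = 0.0194, with a range of 0.0194 to 0.467). Cers4 and Cers5 had log2 fold changes of -0.15 and -0.12 (limma, adjusted p = 0.591 and 0.486). With quality weights both were called lower, at -0.45 and -0.35 (adjusted p = 0.0163 and 0.00733), within ranges of 0.0163 to 0.962 and 0.00733 to 0.905 over all alternatives.

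Of the 4 genes that take ceramide and sphingosine 1-phosphate further 3 rose and 0 fell, with a median log2 fold change of 1.18. Ugcg, which attaches glucose to ceramide in the opening step of complex glycosphingolipids, measured 5029, 4373, 3590.2 and 5312 normalized counts in Opn5-null libraries A to D, against 1555, 2081, 1715 and 1906 in wild-type libraries A to D. Every Opn5-null value was well above the wild-type range, and the log2 fold change was 1.33 with an SE of 0.14 (limma, adjusted p = 0.000354), 2.52-fold by the means. Sgpl1, the lyase that irreversibly cleaves sphingosine 1-phosphate, measured 9979, 7675, 5989 and 8068 normalized counts in Opn5-null libraries A to D, against 3275, 3553, 3641 and 3558 in wild-type libraries A to D. The wild-type values were tight and the lowest Opn5-null value, in C, lay above them all, with a log2 fold change of 1.15 with an SE of 0.14 (limma, adjusted p = 0.000635). Sphk1, a kinase that makes sphingosine 1-phosphate, measured 445, 337, 290.4 and 663 normalized counts in Opn5-null libraries A to D, against 169, 229, 174 and 149 in wild-type libraries A to D. Opn5-null D was the highest and no values overlapped, with a log2 fold change of 1.21 with an SE of 0.26 (limma, adjusted p = 0.00857). Sphk2, the other sphingosine kinase, was between 552 and 789.6 in Opn5-null libraries and between 579.8 and 679 in wild-type libraries, with a log2 fold change of 0.03 with an SE of 0.13 (limma, adjusted p = 0.896). The order of the Opn5-null libraries for Sgpl1 (A, D, B, C from high to low) was also that of the general leukocyte marker sum, at 91044, 72822, 59691 and 32706 normalized counts, and the part of leukocytes in it was not tested.

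The make-up of several isozyme families also differed between genotypes, given here as a description without a test. Levels between genes were compared as normalized counts per kb of annotated exon, summed over the family. The elongase total was 2530.3 ± 91.9 normalized counts per kb in Opn5-null libraries and 3134 ± 143 in wild-type libraries (SD, n = 4 each). Within it Elovl6 made up 12.9% ± 6.08 in Opn5-null libraries and 27.0% ± 2.35 in wild-type libraries, and Elovl7 30.6% ± 13.6 in Opn5-null libraries and 12.4% ± 2.34 in wild-type libraries. In Opn5-null D Elovl7 alone made up 50.9% of the total and Elovl6 5.24%. The share of neither gene overlapped between genotypes, with Elovl6 at 5.24% to 18.5% in Opn5-null libraries and 24.4% to 29.2% in wild-type libraries and Elovl7 at 21.4% to 50.9% in Opn5-null libraries and 10.2% to 15.7% in wild-type libraries. The acyl-CoA synthetase total was 2706 ± 326 normalized counts per kb in Opn5-null libraries and 2675 ± 143 in wild-type libraries (SD, n = 4 each), within which Acsl3 made up 13.6% ± 4.39 in Opn5-null libraries and 27.4% ± 1.52 in wild-type libraries and Acsl4 40.7% ± 11.9 in Opn5-null libraries and 23.7% ± 1.79 in wild-type libraries. The mean totals differed by less than the SD of either genotype, while the shares of Acsl3 and of Acsl4 did not overlap.

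Opn5-null D stood furthest from the wild-type libraries in the shares of Cers2, Cers3, Fads2, Scd2 and Sphk1. Cers3 made up 11.1% to 40.7% in Opn5-null libraries and 41.5% to 43.8% in wild-type libraries, and Cers2 39.1% to 59.1% in Opn5-null libraries and 35.5% to 37.8% in wild-type libraries, of the ceramide synthase total. In Opn5-null D these shares were 11.1% for Cers3 and 59.1% for Cers2, and in Opn5-null A to C they were 35.8, 40.7 and 34.8% for Cers3 and 42.9, 39.1 and 42.2% for Cers2. Fads2 made up 16.2% to 42.1% in Opn5-null libraries and 43.2% to 46.0% in wild-type libraries of the front-end desaturase total. Scd2 held most of the stearoyl-CoA desaturase total in every library, at 82.1% to 88.3% in Opn5-null libraries and 89.9% to 90.7% in wild-type libraries, and was per kb the most abundant member in each genotype, with means of 3009 in Opn5-null libraries and 7207 in wild-type libraries. Degs1 held 98.3% to 99.4% in Opn5-null libraries and 99.5% to 99.8% in wild-type libraries of the dihydroceramide desaturase total. Sphk1 made up 30.8% to 51.1% in Opn5-null libraries and 17.8% to 25.6% in wild-type libraries of the sphingosine kinase total.

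**Figure D4:**
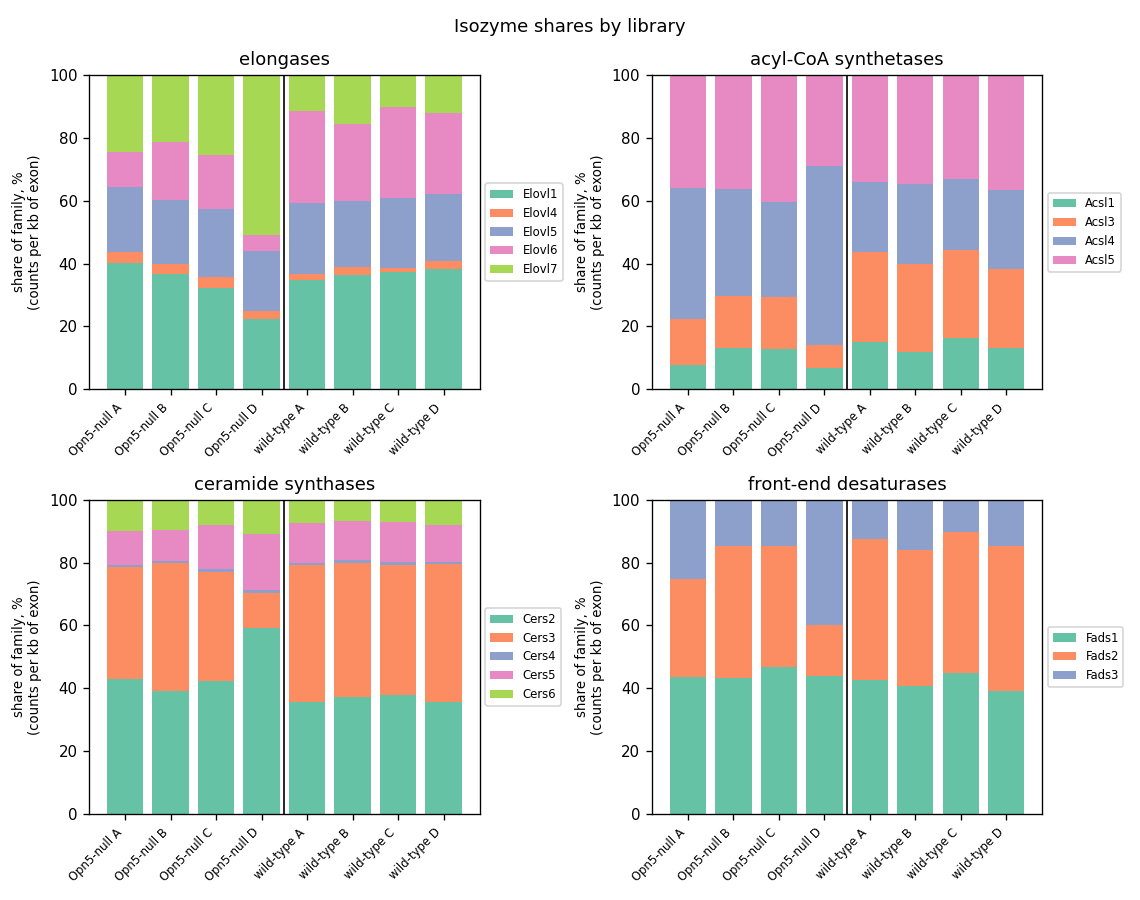
Stacked bars give the percent of each family's normalized counts per kb of exon that each isozyme holds, in 8 libraries with Opn5-null to the left of the line. Elovl7 and Acsl4 hold larger shares, and Elovl6 and Acsl3 smaller ones, in all 4 Opn5-null libraries, and Opn5-null D has the largest shares of Elovl7 and Acsl4.

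Of 23 regulators of lipid synthesis tested, 8 fell (34.8%) and 2 rose (8.7%), against 13.5% and 18.8% of all genes. Their median log2 fold change was -0.30. Insig1, whose protein holds the SREBP escort in the endoplasmic reticulum, measured 1408, 1926, 1882 and 943 normalized counts in Opn5-null libraries A to D, against 4192, 4091, 4164 and 3191 in wild-type libraries A to D. Its groups did not overlap, and its log2 fold change was -1.39 with an SE of 0.22 (limma, adjusted p = 0.00253). Mid1ip1, which encodes a partner of acetyl-CoA carboxylase, had a log2 fold change of -1.06 with an SE of 0.20 (limma, adjusted p = 0.00539). Of 19 genes listed under acetyl-CoA and NADPH supply, 10 fell and 0 rose, against 13.5% and 18.8% of all genes. Slc25a1, the citrate carrier of mitochondria, measured 1095, 1315, 1228 and 852 normalized counts in Opn5-null libraries A to D, against 1963, 2123, 1939 and 1981 in wild-type libraries A to D. Its values did not overlap, at a log2 fold change of -0.85 with an SE of 0.13 (limma, adjusted p = 0.00173). Aco1, Acat2 and Idh1 had log2 fold changes of -0.62, -1.29 and -0.91. Acat2 is a cholesterol synthesis gene and its fall is counted in both lists. Tkt, which also fell, is counted again among the corneal epithelial markers. With wild-type A, B, C or D left out, 5, 5, 5 and 6 supply genes fell, and 1 regulator rose, as also with Opn5-null B left out. Cholesterol synthesis genes fell in 20 of 21 cases and in 10 with wild-type A, B or C left out.

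Further elongation and sphingolipid genes were mixed. Of 17 other elongation, desaturation and fatty acid uptake genes, 5 fell (29.4%) and 3 rose (17.6%), against 13.5% and 18.8% of all genes. Their median log2 fold change was -0.0039. Hsd17b12, the ketoacyl reductase of the elongation cycle, had 5107, 5204, 5553 and 5068 normalized counts in Opn5-null libraries A to D, against 6359, 6659, 6299 and 6232 in wild-type libraries A to D. Its groups were separate and the log2 fold change was -0.29 with an SE of 0.06 (limma, adjusted p = 0.0102). Cd36, a fatty acid uptake receptor, rose by 1.08, and Acsbg1 and Slc27a1 fell by 0.93 and 0.71 on the log2 scale. With Opn5-null A or any wild-type library left out 3 fell, and with wild-type A or C left out 1 rose. With quality weights 5 rose and 4 fell.

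Of 42 other sphingolipid genes, 12 rose (28.6%) and 6 fell (14.3%), against 18.8% and 13.5% of all genes. The share that fell was thus near that of all genes, and the median log2 fold change was 0.11. B4galt5, a lactosylceramide synthase that acts right after Ugcg, measured 2239, 1544, 942 and 1756 normalized counts in Opn5-null libraries A to D, against 215, 222, 212 and 252 in wild-type libraries A to D. Its lowest Opn5-null value was more than 3 times the highest wild-type value, and its log2 fold change was 2.78 with an SE of 0.23 (limma, adjusted p = 0.000149). B4galt6, the second lactosylceramide synthase gene, had a log2 fold change of 1.24 with an SE of 0.18 (limma, adjusted p = 0.00128). Gla, the lysosomal galactosidase of glycosphingolipid breakdown, measured 2241, 1429, 944 and 2038 normalized counts in Opn5-null libraries A to D, against 231, 251, 228 and 266 in wild-type libraries A to D. It too was separate between genotypes, with a log2 fold change of 2.69 with an SE of 0.25 (limma, adjusted p = 0.000232). S1pr3, a receptor for sphingosine 1-phosphate, had a log2 fold change of 2.02 with an SE of 0.26 (limma, adjusted p = 0.000827). With wild-type A or D left out 8 rose, and with Opn5-null A or wild-type A, B or C left out 3 fell. Under upper-quartile scaling 11 rose and 10 fell, with a median of -0.0083.

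Barrier lipid genes of the epidermis, a list of 15 tested, had 1 rise and 1 fall (6.67% each), against 18.8% and 13.5% of all genes. Slc27a4, a fatty acid transport protein gene, measured 4473, 2732, 1968 and 2635 normalized counts in Opn5-null libraries A to D, against 1749, 1788, 1835 and 1697 in wild-type libraries A to D. The groups were separate, with Opn5-null C nearest to wild-type, and the log2 fold change was 0.68 with an SE of 0.21 (limma, adjusted p = 0.0422). Sult2b1, a sterol sulfotransferase gene, had a log2 fold change of -0.98 with an SE of 0.27 (limma, adjusted p = 0.0262). The list's mean log2 difference from wild-type was -1.48 in Opn5-null D and -0.09, -0.58 and -0.17 in A, B and C. Without Opn5-null D, 2 genes of the list fell and 0 rose, with a median of -0.05, against -0.62 with all libraries. No gene of the list rose with Opn5-null B or any wild-type library left out, none fell with Opn5-null B or wild-type A, B or D left out, and 3 fell with Opn5-null C left out. The falls were 4 under quantile normalization and 3 under upper-quartile scaling, and with quality weights 3 rose and 6 fell. Markers of meibomian and sebaceous glands, 14 listed and 7 measured, had 3 rises and 0 falls and summed to 4562 to 10708 normalized counts in Opn5-null libraries and 2450.2 to 3036 in wild-type libraries. Most of that sum was Plin2, a lipid droplet gene of many cell types, and Soat1, at 6025, 4460.3, 2916 and 8409.6 for Plin2 in Opn5-null A to D, against 1169.9, 1560.3, 1423 and 1338 in wild-type A to D. The defining gland genes Awat1, Awat2 and Mc5r were not analysed here. Of 10 adipocyte markers 4 were measured, of which 2 rose and 2 fell, with sums of 423 to 631 normalized counts in Opn5-null libraries and 518 to 626 in wild-type libraries.

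**Figure D5:**
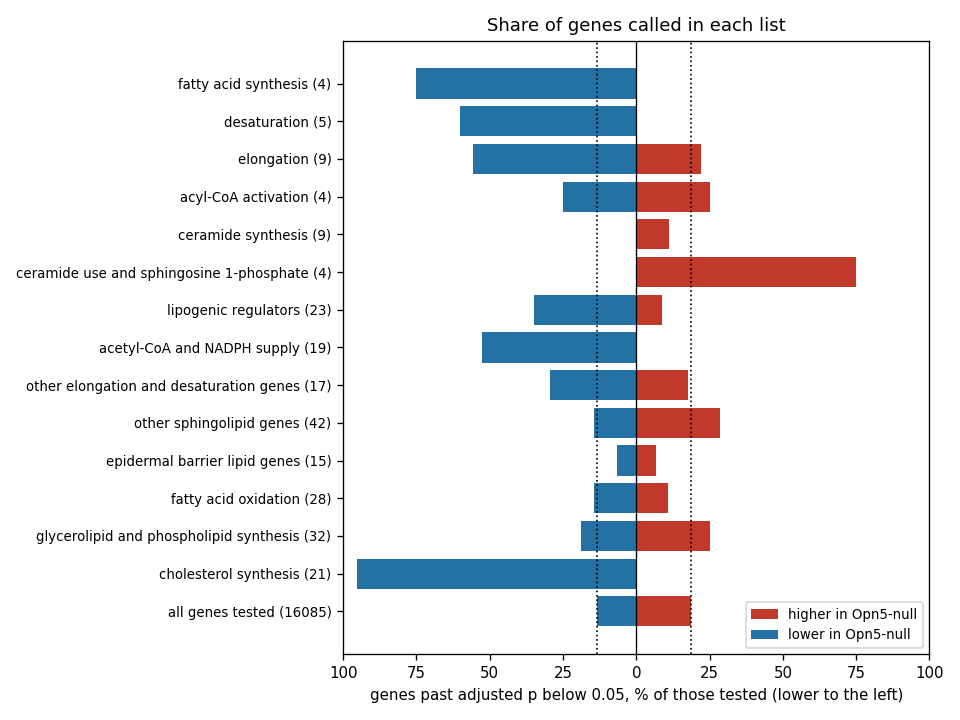
Bars give the percent of genes in each role of the members and each pathway list called higher (right) or lower (left) in Opn5-null corneas at an adjusted p below 0.05, with the number tested in brackets. Dotted lines mark the shares over all 16085 genes, 18.8% higher and 13.5% lower, and of the lists drawn, which leave out cell type markers, cholesterol synthesis and fatty acid synthesis reach furthest to the left.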

How the data were processed

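Per the labels' protocols, total RNA of whole corneas went through ribosomal depletion and cDNA synthesis with a stranded total RNA globin kit. RSEM 1.3.1 is named in the submitters' processing notes. Of aligner, build, gene models and strandedness of counting, each is not given in the sources used here. In the deposited table there is a signal value per gene and library, which by its values is a gene count divided by 1 factor per library. Scaled by the smallest value above 0 of its library, the table gave whole reads for 100% of values within 0.001. The authors' deposited log2 fold changes, p-values and adjusted p-values came from their own comparison. At an adjusted p below 0.05 that comparison calls 7 members higher and 13 lower, and 3516 and 2716 of 16082 genes. DESeq2, run below as an alternative, gave the same counts, so it is not a check apart from that comparison.

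Genotypes were compared by limma 3.58.1 (R 4.3.3) with a trend and robust variance on log2(value + 1), fitted over 16085 of 16091 genes that reached 1 in at least 4 libraries. Adjusted p-values are Benjamini-Hochberg values over all genes tested, and a fold change on this scale understates the change of low genes. Folds and ratios are of mean normalized counts. The design assumed normalized values, so edgeR 4.0.16 and DESeq2 1.42.0 were run on recovered reads as alternatives. With edgeR, 3004 genes were called higher and 2045 lower. The other alternatives were quantile, TMM and upper-quartile scaling, pseudocounts of 0.1 and 5, no filter and a filter at 20, a replicate block, quality weights, ordinary variance, a threshold of 0.01, each library left out, and both D libraries left out. The fit was run on simulated data before use. That simulation gave both genotypes the same spread, so it does not cover the wider Opn5-null spread of genes such as Fads2 and Elovl6.

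The members and the gene lists were chosen with earlier results of these data known. Some lists share genes. Every member is named. Values in every library are given for called members with an absolute log2 fold change of at least 0.5. Those of Acacb, Scd1, Cers3, Krt12, Cryab and Plin2 were added after their values were seen. Other lists name up to 4 called genes by lowest p, of which some are not reported here. Exon lengths and positions come from GENCODE M21 (GRCm38), matched by gene ID for 16063 of 16091 genes, and start-site windows from RefSeq. Deviations from the genotype means correlated with either sign between libraries of the same letter, and the labels do not explain the letters. The letters were not used to pair samples in the main fit.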

Additional observations from a re-analysis of the deposited data

Results flagged for a closer look

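In 5 of 70 groups of 4 libraries, 1 value of a member stood far from the other 3, where chance alone gives about 1 in 20 such groups. Elovl7 was 5310 normalized counts in Opn5-null D, against 2212 to 2609 in the other Opn5-null libraries. Hacd2 was 942 in Opn5-null D, against 1217 to 1227 in the other Opn5-null libraries. Acacb was 60.7 in wild-type D, against 28.5 to 33.7 in the other wild-type libraries. Acsl3 was 2710 in wild-type D, against 3327 to 3382. Acsl4 was 3869 in wild-type B, against 3220 to 3327. Of these values, 2 came from Opn5-null D, the library whose epithelial marker sum was lowest, and the part of cell make-up in them was not tested.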

How the results depend on the processing

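No called change of a member reversed in sign under 22 alternatives. The threshold of 0.01, the filter changes, the replicate block and ordinary variance leave each fold change as in the main fit. No sign could reverse in those settings. Of 770 values of single members, 690 kept their direction or call status, 65 lost a call, 15 gained one and 0 reversed, and 6 members that were not called changed sign in some setting. Quantile normalization and upper-quartile scaling moved the median over all genes (log2) to -0.13, against -0.02, and the share of all calls that were higher to 40.3% and 40.8%, against 58.2%. All genes called lower were then 3746 and 3663, against 2175, and 3796 with quality weights, while the members were 6 higher and 14 lower under both scalings. At a threshold of 0.01, 4 members were higher and 3 lower, and 1818 genes were higher and 702 lower. Leaving out each library in turn, members called lower ranged from 5 to 12 and all genes called lower from 1078 to 2540. With the letter as a replicate block, 6 members were higher and 12 lower, and 2545 and 1691 of all genes. The correlation of deviations between same-lettered libraries was -0.154, -0.127, 0.136 and 0.126 for A to D. Between libraries of different letters it ran from -0.267 (Opn5-null C with wild-type D) to 0.321 (Opn5-null C with wild-type A). Whether the letters pair samples cannot be told from these values, and the labels do not explain the letters. Without both D libraries 7 members were higher and 9 lower, when 14.8% of all genes were called higher and 11.4% lower. The causes of these shifts were not tested, except that fits without a library hold fewer samples. The block ended the calls of Elovl1 (adjusted p = 0.0532) and Elovl7 (adjusted p = 0.0612) and called Scd1 lower (adjusted p = 0.0433) in limma, within ranges over alternatives of 0.00717 to 0.0883, 0.00607 to 0.1 and 0.0249 to 0.142. By edgeR 7 members were higher and 9 lower, against 18.9% and 12.8% of all genes. By DESeq2 7 were higher and 13 lower, against 21.9% and 16.9% of all genes, the same counts as in the authors' comparison. With 4 libraries a genotype, small changes could not be detected where libraries spread widely.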

Other observations

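Of 28 genes of fatty acid oxidation, 3 rose (10.7%) and 4 fell (14.3%), against 18.8% and 13.5% of all genes. Their median log2 fold change was -0.07. Acadm, the medium-chain dehydrogenase gene, and Echs1, a hydratase gene, had log2 fold changes of -0.74 and -0.67, and Slc25a20, the carnitine carrier of mitochondria, had 1.03. The oxidation genes that rose were 2 without wild-type A and without wild-type D. Under both quantile normalization and upper-quartile scaling 2 rose and 7 fell, and with quality weights 5 rose and 7 fell.

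Of 32 genes of glycerolipid and phospholipid synthesis, 8 rose (25%) and 6 fell (18.75%), against 18.8% and 13.5% of all genes. Their median log2 fold change was 0.05. Dgat1, which makes triglyceride, measured 6591, 2739, 834 and 2669 normalized counts in Opn5-null libraries A to D, against 243, 477, 244 and 261 in wild-type libraries A to D. Every Opn5-null value was above the wild-type range, with Opn5-null A far above the rest and C nearest to wild-type, and the log2 fold change was 3.10 with an SE of 0.55 (limma, adjusted p = 0.00413). Gpat3 and Agpat4, acyltransferases of the same path, had log2 fold changes of 1.87 and 1.92, and Lpcat2, a phospholipid-remodelling enzyme of inflammatory cells, had 1.75. The genes of this list that rose were 5 without wild-type A, and those that fell were 11 without Opn5-null C. The balance turned under other scalings, with 7 rising and 11 falling (median -0.07) under quantile normalization and 7 and 9 (median -0.06) under upper-quartile scaling. The general leukocyte markers were also highest in Opn5-null A and lowest among Opn5-null libraries in C, and their part in these values was not tested.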
